A study of Mus musculus with 8 samples.

Results

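Transcript levels of 10 TNF superfamily genes were measured by bulk RNA-seq in Ly6Chi monocytes sorted from injured mouse livers. These inflammatory monocytes are recruited from the blood to damaged tissue. The genes were taken by symbol from the count table, and all 10 were found among its 15336 genes. They comprise 5 ligand genes (Tnf, Tnfsf9, Tnfsf12, Tnfsf13b and Tnfsf14) and 5 receptor genes (Tnfrsf1a, Tnfrsf1b, Cd40, Fas and Ltbr). All 10 also passed the filter on low counts, which kept 12178 genes. The deficient group was 4 LysMDCommd10 males (replicates 5, 6, 12 and 13), whose floxed Commd10 is deleted by a Cre expressed from the LysM (Lyz2) locus, active in monocytes, macrophages and neutrophils. The control group was 4 Commd10fl/fl littermate males (replicates 2, 3, 10 and 11) with floxed alleles and no Cre. All mice were C57BL/6 and 8 weeks old, were fasted for 12 h, received 300 mg/kg acetaminophen into the peritoneum, and were sampled 24 h later. No group carried the Cre with intact Commd10, so loss of COMMD10 and presence of the Cre cannot be told apart.

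Ligands of the TNF superfamily are made as membrane proteins that act as trimers, and several of them, TNF among them, are also released by shedding proteases. Their receptors signal through cytoplasmic adaptors. TNF receptor 1 and FAS carry death domains that can start apoptosis or necroptosis, while TNF receptor 2, CD40 and the lymphotoxin beta receptor recruit TRAF proteins that activate NF-kB. In the injured liver, TNF from infiltrating monocytes and resident macrophages acts on hepatocytes and on other leukocytes. Tnf messenger RNA is short-lived, because AU-rich elements in its 3′ untranslated region (UTR) bind decay factors such as tristetraprolin.

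Total counts per animal ranged from 13327665 to 15759224. Commd10 stood at 8.74 to 17.03 CPM (counts scaled by the normalised size of each library) in deficient animals and at 24.5 to 29.8 CPM in controls, and fell by 0.94 in log2 terms (SE 0.18, edgeR quasi-likelihood adjusted p = 0.0110). Lyz2, the gene whose locus carries the Cre, was also lower in deficient animals (log2 -1.95, SE 0.57, edgeR quasi-likelihood adjusted p = 0.0491). Its level was uneven among them, at 7333.5, 5596.5, 2847 and 315 CPM in deficient animals 5, 6, 12 and 13. Controls had 8869 to 16341 CPM. Lower Lyz2 thus went with the genotype as well. The sample descriptions spell the animal names in 2 ways, which parts the mice into a higher-numbered set (deficient 12 and 13, controls 10 and 11) and a lower-numbered set (deficient 5 and 6, controls 2 and 3). The labels do not say what parts these label sets, but the first principal component, with 60.5% of the variance, separated them. The label set was therefore a term of the model, log2 fold changes set deficient against control (deficient over control) unless stated, and a gene was called at a Benjamini-Hochberg adjusted p under 0.05 over all genes tested. All p-values of single genes are two-sided and come from that edgeR model.

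Sequence of Tnf is shown first because this gene had the largest label-set difference of the 10. The densest stretch of its AU-rich element, 30 bases at positions 437 to 466 of the annotated 3′ UTR on mouse chromosome 17, is printed 5′ to 3′ with its 5 ATTTA pentamers in capitals.
Tnf AU-rich stretch: attATTTAttATTTATTTAttATTTATTTA
The promoter windows of 3 members follow. Each covers 250 bases before to 50 bases after a transcription start, from RefSeq on GRCm38.p6, with motif matches in capitals. The Tnf window lies at chr17:35201958-35202257 on the minus strand, with TATAAA starting 29 bases upstream of the start. The Tnfrsf1b window lies at chr4:145246821-145247120 on the minus strand and holds the interferon-response type motif of 2 GAAA boxes parted by any 2 bases, on the reverse strand, 10 bases upstream. The Tnfsf13b window printed lies at chr8:10006383-10006682 on the plus strand. It holds the same motif 16 bases upstream and the AP-1 type motif TGANTCA 127 bases upstream. The other Tnfsf13b window, of an earlier start, lies at chr8:10006217-10006516. There TGANTCA begins at base 40 downstream of the start, and the pair of GAAA boxes is absent.
Tnf promoter: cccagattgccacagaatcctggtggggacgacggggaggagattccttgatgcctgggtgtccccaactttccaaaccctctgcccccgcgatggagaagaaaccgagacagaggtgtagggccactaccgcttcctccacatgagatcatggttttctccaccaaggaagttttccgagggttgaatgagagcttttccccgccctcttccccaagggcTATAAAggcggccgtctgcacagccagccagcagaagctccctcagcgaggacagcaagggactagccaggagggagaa
Tnfrsf1b promoter: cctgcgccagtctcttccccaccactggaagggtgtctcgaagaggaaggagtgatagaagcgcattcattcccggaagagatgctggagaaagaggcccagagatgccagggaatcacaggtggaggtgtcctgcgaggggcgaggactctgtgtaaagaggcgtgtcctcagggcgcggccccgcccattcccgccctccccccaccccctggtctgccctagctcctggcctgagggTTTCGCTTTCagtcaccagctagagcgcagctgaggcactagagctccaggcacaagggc
Tnfsf13b promoter: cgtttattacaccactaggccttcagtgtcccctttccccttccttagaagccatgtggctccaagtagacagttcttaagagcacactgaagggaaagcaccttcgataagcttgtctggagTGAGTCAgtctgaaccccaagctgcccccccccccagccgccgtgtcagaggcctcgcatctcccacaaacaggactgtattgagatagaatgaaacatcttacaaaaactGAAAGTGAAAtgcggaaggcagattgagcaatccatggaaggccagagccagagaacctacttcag
Promoter windows were found for 7 of the 10 members, 8 windows in all, and both strands were searched. The pair of GAAA boxes was present in 2 of these 8 and in 3.44% of all 32851 mouse promoter windows. TGANTCA was present in 4 of the 8, those of Tnfsf14 and Fas and both windows of Tnfsf13b, which overlap and share the site, and in 7.81% of all windows. TATAAA was present in 1 of the 8 and in 13.6% of all windows. The NF-kB consensus was in none of the 8 and in 5.8% of all windows, which says only that those letters are not in these windows. No match overlapped a match of another motif.

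No member was called between the genotypes. Of the 10 members, 0 were higher and 0 were lower in deficient monocytes, against 6.59% of all tested genes called higher and 7.35% called lower. The median log2 fold change was 0.0022 over the members and -0.00028 over all genes tested. The lowest adjusted p of a member was 0.125, for Tnfsf9, and it alone had an unadjusted p under 0.05. DESeq2 and limma voom on the same model also called 0 of the 10. Without the label set in the model no gene of the table was called, so neither was any gene named below, and 12.5% of genes had an unadjusted p under 0.05. Between the label sets, by contrast, 2 members were higher in the higher-numbered set and 4 were lower, beside 18.6% and 18.3% of all tested genes (36.9% in either direction). In sorted bulk samples, fewer cells of one kind and less RNA per cell cannot be told apart.

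**Figure D1:**
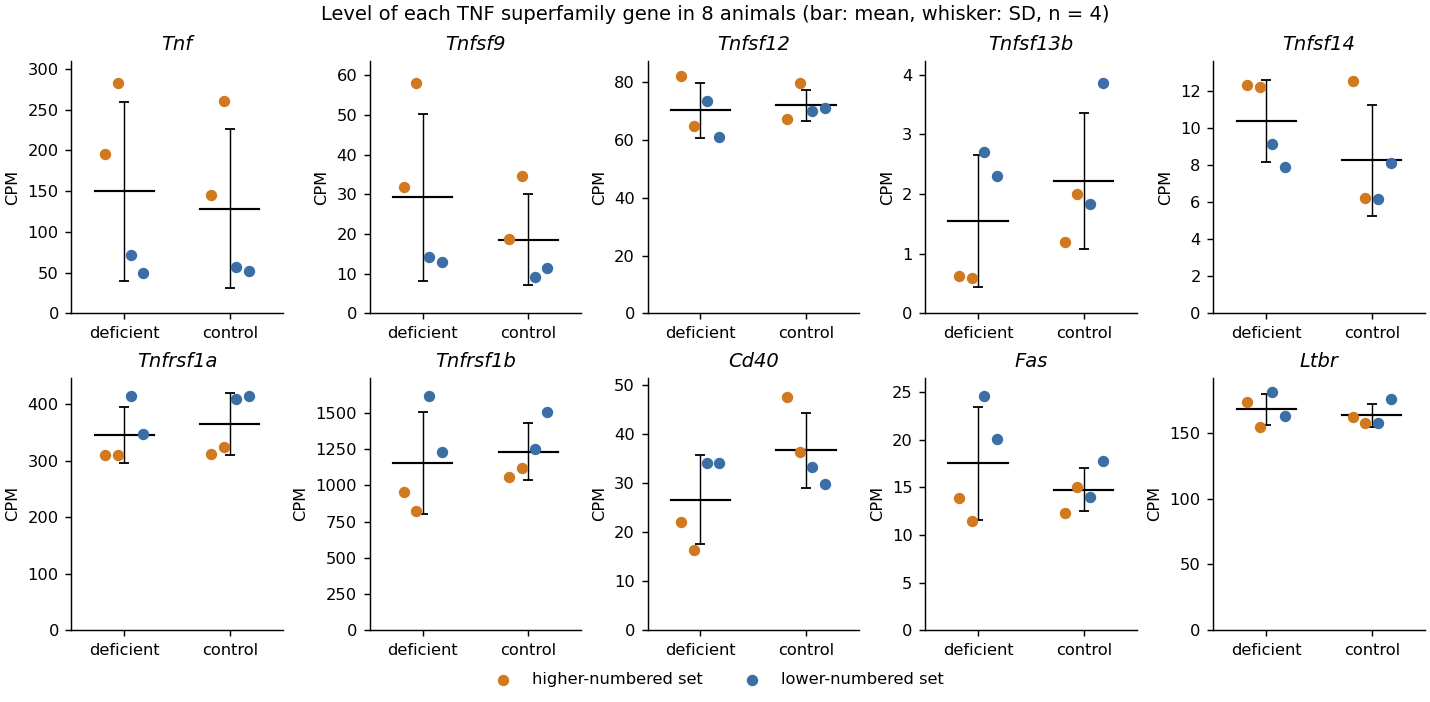
Level of each of the 10 genes in CPM (linear axis from 0) in 4 deficient and 4 control animals, with 1 point per animal coloured by label set, a bar for the mean and a whisker for the SD. For Tnf and Tnfsf9 the points part by label set within both genotypes, whereas the genotype groups overlap in every panel.

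Tnf encodes the founding cytokine of the family (ENSMUSG00000024401, GRCm38 chr17:35199381-35202007, minus strand). It stood at 196 and 282 CPM in deficient animals 12 and 13 as well as 71.2 and 49.5 CPM in deficient animals 5 and 6, against 145 and 261 CPM in controls 10 and 11 as well as 56.4 and 52.6 CPM in controls 2 and 3. The genotypes overlapped, while every animal of the higher-numbered set lay above every animal of the lower-numbered set. Such parting of the sets, in either direction, was seen for 24.3% of tested genes. Deficient animals averaged 150 ± 109 CPM and controls 129 ± 97.8 CPM (SD, n = 4 each). The log2 fold change was 0.19 (SE 0.19, 95% interval -0.23 to 0.62, adjusted p = 0.526). The interval of the genotype difference thus covers a fold of 0.850 to 1.54. Between label sets, Tnf averaged 221 ± 62.4 CPM in the higher-numbered set and 57.4 ± 9.61 CPM in the lower-numbered set (SD, n = 4 each), a 3.84-fold difference (log2 1.94, SE 0.20, adjusted p = 0.000206). Leaving out each animal in turn moved that log2 difference between 1.76 and 2.09 and kept the call. Over the 8 animals, the genes whose log2 CPM was most like that of Tnf were Il1b, the interleukin-1 beta gene (Pearson r = 0.983), Nfkbid, which encodes a nuclear IkB protein (r = 0.983), and Id2, a transcriptional inhibitor (r = 0.982), of 8464 genes searched. These values are a description across both label sets, which themselves part the levels of Tnf, and each set holds only 4 animals.

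Tnfsf9, the gene of the T cell costimulatory ligand 4-1BBL (ENSMUSG00000035678, chr17:57105325-57107757, plus strand), had a profile like that of Tnf between the sets. Its level was 31.8 and 58.0 CPM in deficient animals 12 and 13 as well as 14.1 and 13.005 CPM in deficient animals 5 and 6, against 18.8 and 34.7 CPM in controls 10 and 11 as well as 9.29 and 11.6 CPM in controls 2 and 3. Both deficient animals of the lower-numbered set exceeded both of its controls, and in the higher-numbered set the genotypes overlapped. The genotype means were 29.2 ± 21.0 CPM in deficient animals and 18.6 ± 11.5 CPM in controls (SD, n = 4 each), with a log2 fold change of 0.58 (SE 0.23, 95% interval 0.06 to 1.11). That difference had an unadjusted p of 0.0328 and did not pass adjustment (adjusted p = 0.125). Its level was 35.8 ± 16.3 CPM in the higher-numbered set and 12.0 ± 2.08 CPM in the lower-numbered set (SD, n = 4 each), a 2.93-fold difference (log2 1.55, SE 0.24, adjusted p = 0.00122). Of its 1290 exon bases, 192 (14.9%) are shared with the non-coding gene Gm11110 on the opposite strand, and whether the counting used strand is not given in the sources used here.

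Tnfsf13b encodes BAFF, a B cell survival factor that myeloid cells secrete (ENSMUSG00000031497, chr8:10006467-10039072, plus strand), and was the scarcest member. Its raw counts were 9 and 9 in deficient animals 12 and 13 and 41 and 32 in deficient animals 5 and 6, against 16 and 28 in controls 10 and 11 and 27 and 58 in controls 2 and 3. In CPM the deficient animals of the higher-numbered set, at 0.623 and 0.591, were the lowest of the 8. Means were 1.55 ± 1.11 CPM in deficient animals and 2.23 ± 1.14 CPM in controls (SD, n = 4 each). The log2 fold change was -0.63 (SE 0.34, 95% interval -1.40 to 0.14, adjusted p = 0.245). Its level differed between label sets, with a log2 difference of -1.33 (SE 0.35, adjusted p = 0.0149) for the higher-numbered over the lower-numbered set. Within the higher-numbered set its genotype difference was -1.40 with no overlap (adjusted p = 0.130), and within the lower-numbered set it was -0.19 with overlap (adjusted p = 0.838). The interaction of genotype and label set was -1.21 (adjusted p = 0.788), and ranged from -1.84 to -0.77 without single animals. Without control replicate 3 the label-set difference was -1.20 and the call was lost (adjusted p = 0.0568).

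Tnfsf14, the gene of LIGHT, a ligand of the lymphotoxin beta receptor and of HVEM (ENSMUSG00000005824, chr17:57189492-57194177, minus strand), was at 12.3 and 12.2 CPM in deficient animals 12 and 13 as well as 9.16 and 7.90 CPM in deficient animals 5 and 6. Controls 10 and 11 were at 12.5 and 6.24 CPM, and controls 2 and 3 at 6.17 and 8.12 CPM. The groups overlapped, and control 11 was the animal of its set that lay at the level of the lower-numbered set. Neither the genotype difference (log2 0.33, SE 0.20, 95% interval -0.11 to 0.77, adjusted p = 0.291) nor the label-set difference (log2 0.46, SE 0.20, adjusted p = 0.0938) passed the test. Without control 11 the label-set difference was 0.64 on the log2 scale and was called (adjusted p = 0.00641).

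Tnfsf12, which encodes the cytokine TWEAK (ENSMUSG00000097328, chr11:69686250-69695849, minus strand), was the steadiest ligand gene. It lay between 60.9 and 82.0 CPM in deficient animals and between 67.2 and 79.7 CPM in controls, with a log2 fold change of -0.04 (SE 0.09, 95% interval -0.25 to 0.17, adjusted p = 0.824). The label-set difference was 0.09 (adjusted p = 0.465). The sign of the estimate changed when single animals were left out. Of its 1515 exon bases, 731 (48.3%) are also annotated to the read-through gene Tnfsfm13 on the same strand, so counts of these genes depend on how shared reads were assigned.

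Tnfrsf1b, the gene of TNF receptor 2 (ENSMUSG00000028599, chr4:145213463-145246870, minus strand), was the most abundant member. Its level was 953 and 824 CPM in deficient animals 12 and 13 as well as 1620 and 1232 CPM in deficient animals 5 and 6, against 1056 and 1117 CPM in controls 10 and 11 as well as 1254 and 1504 CPM in controls 2 and 3. All 4 animals of the higher-numbered set lay under all 4 of the lower-numbered set, and the genotypes overlapped. Sets that part, in either direction, were seen for 24.3% of tested genes. The means of the genotypes were 1157 ± 352 CPM in deficient animals and 1233 ± 199 CPM in controls (SD, n = 4 each). The log2 fold change was -0.12 (SE 0.12, 95% interval -0.38 to 0.14, adjusted p = 0.510). Between sets the means were 987 ± 128 CPM in the higher-numbered and 1402 ± 190.1 CPM in the lower-numbered set (SD, n = 4 each), a log2 difference of -0.51 (SE 0.12, adjusted p = 0.00753).

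Tnfrsf1a, the gene of TNF receptor 1, the death domain receptor (ENSMUSG00000030341, chr6:125349362-125362484, plus strand), followed the same order of sets. It stood at 309 and 310.3 CPM in deficient animals 12 and 13 as well as 414 and 348 CPM in deficient animals 5 and 6, against 312 and 323 CPM in controls 10 and 11 as well as 409 and 414 CPM in controls 2 and 3. The sets did not overlap, as for 24.3% of tested genes in either direction, and the genotypes did. The log2 fold change between genotypes was -0.07 (SE 0.06, 95% interval -0.22 to 0.07, adjusted p = 0.471). Across sets the means were 314 ± 6.42 CPM in the higher-numbered and 396 ± 32.5 CPM in the lower-numbered set (SD, n = 4 each), a log2 difference of -0.34 (SE 0.06, adjusted p = 0.00365). In the higher-numbered set the gene of the ligand, Tnf, was thus higher and the genes of both its receptors were lower. Their label-set calls were kept when any single animal was left out.

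Cd40, the gene of the receptor by which T cells license antigen-presenting cells (ENSMUSG00000017652, chr2:165055627-165072948, plus strand), had genotype differences of opposite sign in the label sets. In the higher-numbered set it stood at 22.0 and 16.3 CPM in deficient animals 12 and 13, against 47.5 and 36.5 CPM in controls 10 and 11. In the lower-numbered set it stood at 34.2 and 34.2 CPM in deficient animals 5 and 6, against 33.4 and 29.8 CPM in controls 2 and 3. The genotypes did not overlap within either set, in opposite directions, as was so for 3.61% of tested genes. Over both sets the log2 fold change was -0.50 (SE 0.23, 95% interval -1.02 to 0.03, adjusted p = 0.183), with means of 26.7 ± 8.997 CPM in deficient animals and 36.8 ± 7.67 CPM in controls (SD, n = 4 each). A model with a term for the interaction of genotype and label set, with the spread shared by all 8 animals, gave -1.13 (SE 0.17, 95% interval -1.51 to -0.75, adjusted p = 0.00636) within the higher-numbered set, where 4.92% of tested genes were called lower and 8.47% in either direction. Within the lower-numbered set it gave 0.12 (95% interval -0.26 to 0.49, adjusted p = 0.763), where 0.657% of genes were called in either direction. These contrasts were chosen after the data were seen, and the first held without any 1 animal (log2 -1.37 to -0.93, highest adjusted p = 0.0338). The interaction itself was -1.25 with an unadjusted p of 0.000536, which did not pass adjustment over all genes (adjusted p = 0.191). At that level 0.0411% of genes were called, and 6.71% had an unadjusted p under 0.05. DESeq2 gave -1.25 with an adjusted p of 0.00213 and called 0.462% of genes.

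Markers of cells that carry CD40 were measured in the same libraries. Summed CPM of the 7 B cell markers was 47.4 and 47.2 in deficient animals 12 and 13, against 75.0 and 89.2 in controls 10 and 11, and 91.2 and 87.4 in deficient animals 5 and 6, against 130.5 and 124 in controls 2 and 3. None of the 7 was at 0 in any animal. Summed CPM of the 9 dendritic cell markers was 66.4 and 49.2 in deficient animals 12 and 13, against 86.5 and 58.1 in controls 10 and 11. In the lower-numbered set it was 28.8 and 46.0 in deficient animals, against 47.7 and 53.4 in controls. Batf3 had the most raw counts of the dendritic cell list in every animal, at 222 to 835 in deficient animals and 374 to 940 in controls. No other gene of that list exceeded 199. Of its 7 tested genes 3 were called lower and 0 higher in deficient animals, beside 7.35% and 6.59% of all tested genes. All 7 had negative log2 fold changes. Ighm gave most of the B cell sum and was called lower in deficient animals (log2 -0.93, adjusted p = 0.000969), as was Cd79b, while Jchain was called higher (log2 2.41, adjusted p = 0.0135). The summed B cell level itself did not pass the test between genotypes (exact permutation test, p = 0.143, adjusted p = 0.257 over 9 lists). That test ignored the label set. Within each set the B cell sums of both deficient animals lay under those of both controls. The part of such cells in the Cd40 values was not tested.

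Fas, the gene of the death receptor for FAS ligand (ENSMUSG00000024778, chr19:34290666-34327772, plus strand), was at 13.8 and 11.5 CPM in deficient animals 12 and 13 as well as 24.6 and 20.1 CPM in deficient animals 5 and 6, against 12.3 and 15.002 CPM in controls 10 and 11 as well as 13.97 and 17.8 CPM in controls 2 and 3. The 2 highest animals were the deficient ones of the lower-numbered set. Over both sets the log2 fold change was 0.21 (SE 0.15, 95% interval -0.14 to 0.55, adjusted p = 0.395). It was -0.11 in the higher-numbered set and 0.49 in the lower-numbered set, and the interaction of -0.61 did not pass adjustment (unadjusted p = 0.0403, adjusted p = 0.720). The label-set difference of -0.52 (SE 0.16) was called at an adjusted p of 0.0254, and that call was lost without deficient animal 5, 12 or 13 or control 3 or 10, with log2 values of -0.53 to -0.40 and adjusted p of 0.0547 to 0.0802.

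Ltbr, the gene of the lymphotoxin beta receptor (ENSMUSG00000030339, chr6:125306571-125313885, minus strand, beside Tnfrsf1a), varied least. It ranged from 155 to 181 CPM in deficient animals and from 157 to 176 CPM in controls, and averaged 168 ± 11.8 and 163 ± 8.57 CPM (SD, n = 4 each) in these groups. The log2 fold change was 0.04 (SE 0.06, 95% interval -0.10 to 0.19, adjusted p = 0.704) and the label-set difference was -0.06 (adjusted p = 0.465).

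**Figure D2:**
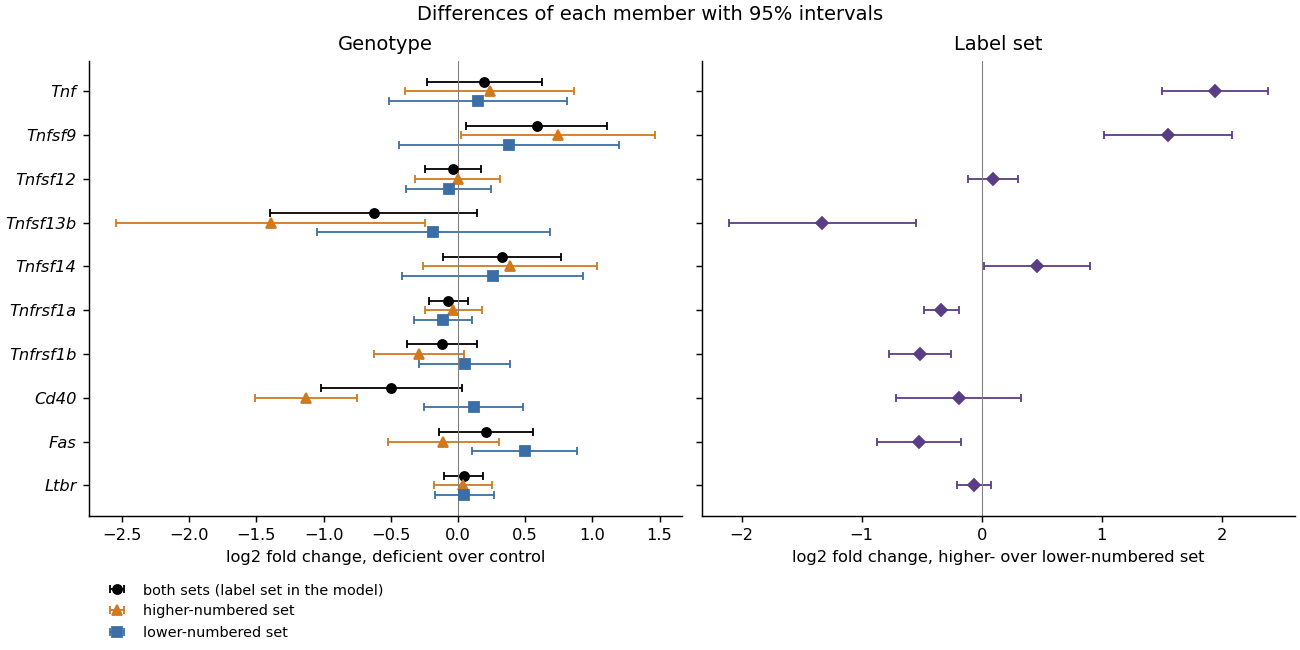
Log2 fold change of each of the 10 genes with its 95% interval, deficient over control on the left (both sets together, then each set from the model with the interaction) and higher-numbered over lower-numbered set on the right. The genotype estimates over both sets lie between -0.63 and 0.58, while Tnf at 1.94 and Tnfsf9 at 1.55 stand apart in the label-set panel.

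Levels of different genes were compared as CPM per kilobase of exon, averaged over the 8 animals. Receptor genes for TNF headed the order, with Tnfrsf1b at 312.9 (303 ± 92.3 in deficient animals and 323 ± 52.1 in controls, SD, n = 4 each) and Tnfrsf1a at 137 on this scale. Tnf followed at 84.9 with a range over animals of 30.2 to 172, which overlapped the ranges of Tnfrsf1a above it and of Ltbr, at 70.4, below it. That place of Tnf came from a mean over both sets and held in neither. In the higher-numbered set Tnf averaged 135, next after Tnfrsf1b and overlapping Tnfrsf1a at 121, and in the lower-numbered set it averaged 35.0, below Ltbr at 71.9 and Tnfsf12 at 45.4. Tnfsf12 stood at 46.9, or 90.7 if only exon bases not shared with Tnfsfm13 are used as its length, and overlapped Tnfsf9 at 18.5. Cd40 at 9.32, Fas at 7.83 and Tnfsf14 at 5.06 overlapped their neighbours. Tnfsf13b was last at 0.275. With full exon lengths, gaps without overlap lay below Tnfrsf1b, below Ltbr and below Tnfsf14. The unshared length would put the mean of Tnfsf12 above those of Tnf and Ltbr, so the gap below Ltbr rests on the full length.

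**Figure D3:**
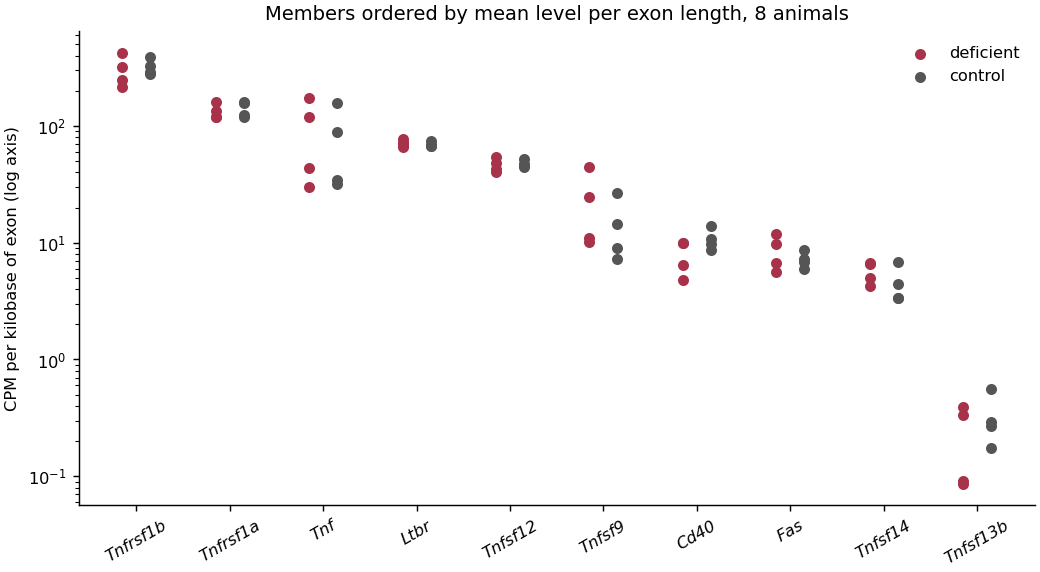
CPM per kilobase of exon (log axis) of the 10 genes in each animal, ordered by their mean, with deficient animals in red and controls in grey. The order runs from Tnfrsf1b at 312.9 to Tnfsf13b at 0.275, and the red and grey points of each gene overlap.

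Tnf and Tnfsf9, the members called higher in the higher-numbered set, had the highest densities of AU-rich pentamers per kilobase of 3′ UTR among the 10. The longest annotated 3′ UTR of Tnf holds 8 ATTTA pentamers in 764 bases, 10.5 per kilobase, among them those printed above, and 5 copies of the nonamer TTATTTATT. Tnfsf9 holds only 2 pentamers, in 253 bases, which makes 7.91 per kilobase. By number, Cd40 with 7 and Tnfsf13b with 6 in their longer UTRs exceeded Tnfsf9. Cd40, with a label-set difference of -0.19 that was not called, has 3.44 per kilobase, and the other 7 members have 0 to 1.69. Over 10699 tested genes with a 3′ UTR of at least 100 bases the median was 1.24 pentamers per kilobase, and 32 genes (0.299%) reached the density of Tnf. The nonamer also occurs in the 3′ UTR of Tnfsf13b, which was lower in the higher-numbered set, and in 7.94% of genes. These densities describe annotated sequence, and no half-life was measured.

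**Figure D4:**
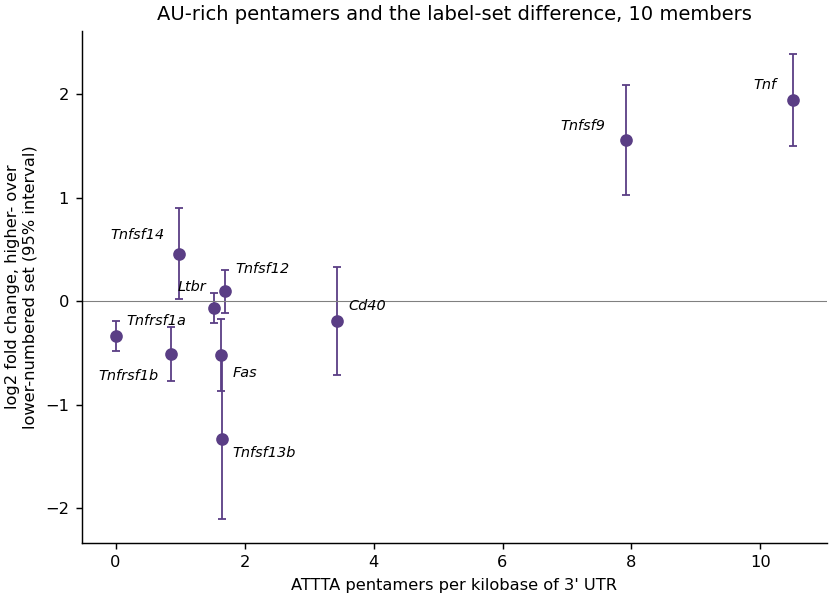
ATTTA pentamers per kilobase of 3′ UTR against the log2 difference of the higher-numbered over the lower-numbered set, with 95% intervals, for the 10 genes. Tnf at 10.5 per kilobase and Tnfsf9 at 7.91 lie at the upper right, and the other 8 genes have 3.44 per kilobase or fewer and differences of 0.46 or below.

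Among the rest of the superfamily, 4 of 16 tested genes (25.0%) were called between the genotypes, beside 13.9% of all tested genes. Of 13 further ligand genes, 3 were tested and 1 was called, and of 23 further receptor genes, 13 were tested, with 1 called higher and 2 called lower. The ligand was Tnfsf10, the gene of the apoptosis-inducing ligand TRAIL, at 1.32 and 1.51 CPM in deficient animals 12 and 13 as well as 2.97 and 3.09 CPM in deficient animals 5 and 6, against 3.08 and 5.17 CPM in controls 10 and 11 as well as 9.02 and 4.72 CPM in controls 2 and 3. Its log2 fold change was -1.33 (SE 0.26, adjusted p = 0.0119). For Tnfsf10 the deficient animals lay under the controls within both sets, a parting in 1 direction shown by 27.3% of tested genes. Its value was -1.07 with 1 surrogate variable, a factor estimated from the data, in place of the label set, and the call was lost (adjusted p = 0.0832). Of the 19 called genes named in this and the following lists, 2 (Cxcl3 and Rhbdf1) were called with the surrogate variable, 7 (Tnfrsf26, Ripk3, Daxx, Cxcl3, Il6, Ccl2 and Ier3) in the higher-numbered set alone and 1 (Cxcl3) in the lower-numbered set alone. Tnfrsf26, a mouse receptor gene that lies in a cluster of decoy-type receptors, rose, at 6.82 ± 4.81 CPM in deficient animals and 2.74 ± 1.12 CPM in controls (SD, n = 4 each; log2 1.17, SE 0.25, adjusted p = 0.0165). That call was lost without deficient animal 12 or control 11 (log2 0.96 to 1.33 over all animals left out, adjusted p of 0.0538 and 0.0566), and the value was 0.68 with the surrogate variable. Tnfrsf13b, the gene of TACI, a receptor for BAFF and APRIL, fell to 49.6 ± 7.02 CPM in deficient animals, against 61.3 ± 9.76 CPM in controls (SD, n = 4 each; log2 -0.30, SE 0.06, adjusted p = 0.0144), a call lost without deficient animal 12 (adjusted p = 0.0526) and with the surrogate variable (log2 -0.19). Tnfrsf21, the gene of death receptor 6, fell to 187 ± 34.9 CPM in deficient animals, against 223 ± 33.6 CPM in controls (SD, n = 4 each; log2 -0.26, SE 0.06, adjusted p = 0.0186), and lost the call without deficient animal 12 or 13 or control 3 or 11 (adjusted p of 0.0534 to 0.0635) and with the surrogate variable (log2 -0.13). Taking the 10 members together with these 2 lists, 26 superfamily genes were tested, of which 1 rose, 3 fell and 22 were not called. The genes of CD40 ligand and FAS ligand were looked up by symbol and were not found in the count table.

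Of 30 genes of signalling close to the receptors, all were tested, 2 rose, 4 fell and 24 were not called, beside 6.59% of all tested genes called higher and 7.35% called lower, with a median log2 fold change of -0.06 beside -0.00028 over all genes. Ripk3, the kinase gene of necroptosis, rose to 90.7 ± 18.6 CPM in deficient animals, against 67.2 ± 9.004 CPM in controls (SD, n = 4 each; log2 0.42, SE 0.09, adjusted p = 0.0141). Daxx, a FAS-associated chromatin factor gene, fell to 115 ± 25.1 CPM in deficient animals, against 152 ± 23.1 CPM in controls (SD, n = 4 each; log2 -0.41, SE 0.07, adjusted p = 0.00810). These calls were kept when any single animal was left out. Both were lost with the surrogate variable, at 0.29 for Ripk3 (adjusted p = 0.0760) and -0.28 for Daxx (adjusted p = 0.105), and in the lower-numbered set alone, with adjusted p of 0.259 and 0.220. The other 4 calls were lost without single animals as well as with the surrogate variable. Cflar, which encodes the caspase-8 regulator cFLIP, stood at 146 ± 11.6 CPM in deficient animals and 122 ± 4.21 CPM in controls (SD, n = 4 each; log2 0.25, SE 0.07, adjusted p = 0.0342), with no overlap between the groups, as for 7.02% of tested genes in either direction. Its call was lost without deficient animal 5 or 12 or any 1 control, with adjusted p of 0.0634 to 0.110, and with upper-quartile scaling (adjusted p = 0.0528). The adaptor gene Fadd fell by 0.31 in log2 terms (SE 0.08, adjusted p = 0.0317), also with no overlap, and lost the call without deficient animal 6, 12 or 13 or control 3, 10 or 11 (adjusted p of 0.0595 to 0.0932). Rnf31, which encodes the HOIP subunit of the linear ubiquitin ligase, fell by 0.23 (SE 0.06, adjusted p = 0.0308) and lost the call without any 1 animal other than deficient animal 5 (adjusted p of 0.0503 to 0.0963), with a value of -0.13 under the surrogate variable. Map3k5, the gene of the stress kinase ASK1, fell by 0.30 (SE 0.08, adjusted p = 0.0374) and lost it without deficient animal 5, 6 or 12 or control 2, 3 or 11 (adjusted p of 0.0503 to 0.105). With the surrogate variable the value of Map3k5 was -0.04 (adjusted p = 0.798). Between the label sets 15 of the 30 were lower and 2 higher in the higher-numbered set, beside 18.3% and 18.6% of all genes.

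Tnf expression is also set by messenger stability and by shedding of the protein, and all 18 genes of that list were tested, of which 3 rose, 2 fell and 13 were not called, beside 6.59% and 7.35% of all tested genes. Zc3h12a, the gene of the endonuclease regnase-1, rose to 158 ± 83.4 CPM in deficient animals, against 120 ± 64.6 CPM in controls (SD, n = 4 each; log2 0.40, SE 0.08, adjusted p = 0.0149). With the surrogate variable its value was -0.05. Rhbdf2, which encodes iRhom2, the partner of the TNF sheddase ADAM17 in myeloid cells, stood at 183 ± 23.0 CPM in deficient animals and 149 ± 16.8 CPM in controls (SD, n = 4 each; log2 0.30, SE 0.08, adjusted p = 0.0382). That call was lost without deficient animal 5 or 12 or any 1 control (adjusted p of 0.0627 to 0.126) and with upper-quartile scaling. Its paralog Rhbdf1 fell to 0.982 ± 0.225 CPM in deficient animals, against 2.19 ± 0.521 CPM in controls (SD, n = 4 each; log2 -1.14, SE 0.23, adjusted p = 0.0133), with no overlap between the groups, as for 7.02% of tested genes in either direction. Rhbdf1 had no more than 41 raw counts in any animal, so depth limits this call. Litaf, which encodes a late endosomal membrane protein, rose by 0.31 in log2 terms (SE 0.09, adjusted p = 0.0472), a call lost without any 1 animal other than deficient animal 6 (adjusted p of 0.0548 to 0.135) and with relative log expression (RLE) or upper-quartile scaling or the stricter count filter, and its value was 0.17 with the surrogate variable. Zfp36l2, the gene of a tristetraprolin relative that binds AU-rich elements, fell to 981 ± 106 CPM in deficient animals, against 1209 ± 39.2 CPM in controls (SD, n = 4 each; log2 -0.30, SE 0.08, adjusted p = 0.0370), without overlap, and lost the call without deficient animal 6 or 12 or any 1 control (adjusted p of 0.0640 to 0.103).

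Of 28 TNF-inducible genes 27 were tested, of which 6 rose and 0 fell in deficient monocytes, and 21 were not called, beside 6.59% and 7.35% of all tested genes, with a median log2 fold change of 0.20 beside -0.00028 over all genes. Traf1, Birc3 and Tnfaip3 stand in this list and in the signalling list. The 4 with the smallest p were the chemokine genes Cxcl3 and Ccl2, Il6, and the NF-kB target gene Ier3. Ier3, an early-response gene that limits apoptosis, stood at 633 and 596 CPM in deficient animals 12 and 13 as well as 108 and 173 CPM in deficient animals 5 and 6. Controls 10 and 11 were at 406 and 373 CPM, and controls 2 and 3 at 84.5 and 60.3 CPM. Its log2 fold change was 0.80 (SE 0.15, adjusted p = 0.0113), and those of Cxcl3, Il6 and Ccl2 were 3.47 (SE 0.12, adjusted p = 1.875e-06), 1.76 (SE 0.30, adjusted p = 0.00806) and 1.15 (SE 0.22, adjusted p = 0.0111). With the surrogate variable the values were 0.0732 for Ier3, 1.96 for Cxcl3, 0.34 for Il6 and 0.42 for Ccl2, and the calls of Ier3, Il6 and Ccl2 were lost (adjusted p of 0.756, 0.688 and 0.0919). These 3 were also not called in the lower-numbered set alone, at 0.96, 1.03 and 0.90 (adjusted p of 0.140, 0.454 and 0.184). Between the label sets 14 of the 27 were higher and 3 lower in the higher-numbered set, beside 18.6% and 18.3% of all tested genes, with a median log2 difference of 1.09 beside -0.0078 over all genes. The higher-numbered set thus had more Tnf and more message of 14 TNF-inducible genes, whereas between genotypes 6 such genes were called and Tnf was not. Many of these genes respond to other stimuli too, and what drove them was not tested.

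**Figure D5:**
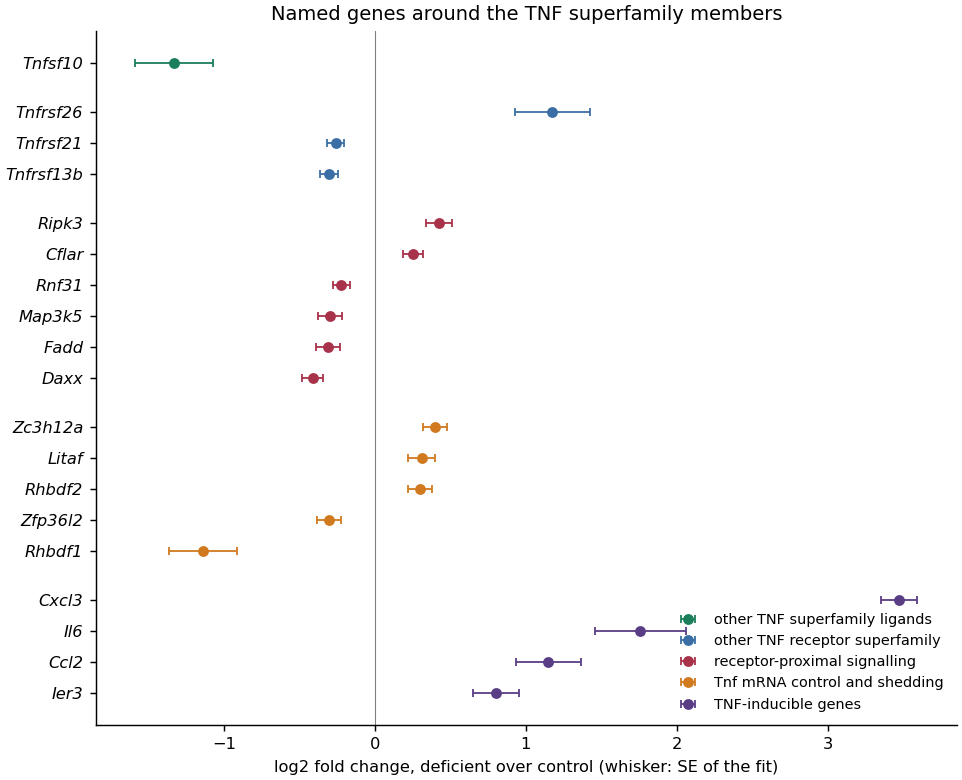
Log2 fold change, deficient over control, with its SE, of the 19 named called genes outside the 10 members, grouped by list. Cxcl3 at 3.47 and Tnfsf10 at -1.33 mark the ends of the range.

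Markers of the sorted cells and of other cells were summed per animal. The 12 Ly6Chi monocyte markers were all present and reached 15797 to 27658 CPM in deficient animals and 13217 to 17106 CPM in controls. Of these 12, 5 were called higher and 2 lower in deficient animals, beside 6.59% and 7.35% of all tested genes. Fn1 had 68284 to 202464 raw counts in deficient animals and 40107 to 81197 in controls, while Ccr2 had 15189 to 21717 and 18622 to 25924. Of 14 neutrophil markers 12 were found by symbol in the count table, and Ly6g and Camp were not. The neutrophil markers found summed to 684 to 935 CPM in deficient animals and 420 to 639 CPM in controls (exact permutation test over 4 against 4 animals, p = 0.0286, the smallest possible, adjusted p = 0.129 over 9 lists). Of their 8 tested genes, 4 were called higher in deficient animals and 6 were called higher in the higher-numbered set, beside 6.59% and 18.6% of all tested genes. These are the same directions as those of the TNF-inducible genes. S100a8 had 533 to 2051 raw counts in deficient animals and 46 to 264 in controls. Csf3r had the most counts in every animal and was not higher in deficient animals, at 3820 to 5456 against 4558 to 5716. Ltf, Ngp, Retnlg, Elane and Mpo had no more than 25 counts in any animal. Ngp was at 0 in control 3 and Retnlg in control 2. Kupffer cell markers summed to 787 to 1138 CPM in deficient animals and 1143 to 2089 CPM in controls (exact permutation test, p = 0.0286, adjusted p = 0.129), and hepatocyte markers to 108 to 154 CPM and 143 to 410.4 CPM in those groups. C1qa, C1qb and C1qc gave nearly all of the Kupffer cell sum, and no other marker of that list exceeded 160 raw counts. Of its 9 tested genes 5 were called lower and 0 higher in deficient animals, beside 7.35% and 6.59% of all tested genes. Cd163 overlapped, at 30 to 86 counts in deficient animals and 38 to 63 in controls. T and NK cell markers did not overlap between the sets, at 52.0 to 97.7 CPM in the higher-numbered and 13.8 to 27.4 CPM in the lower-numbered set, and neither did liver endothelial markers, at 38.1 to 143.7 CPM and 17.3 to 31.9 CPM in those sets. In the T and NK cell list Il7r had the most raw counts in every animal, at 497 to 1266 and 79 to 341 in those sets. Some other genes of that list parted the sets too, such as Gzma at 28 to 33 and 2 to 11 counts. Others overlapped, such as Cd3e at 3 to 12 and 2 to 9 counts. B cell markers ranged over 47.2 to 91.2 CPM in deficient animals and 75.0 to 130.5 CPM in controls, dendritic cell markers over 28.8 to 66.4 CPM and 47.7 to 86.5 CPM, and platelet markers over 37.6 to 159 CPM and 38.0 to 79.5 CPM in those groups. No list passed adjustment over the 9 lists. The smallest p this test can give is 0.0286. The neutrophil and Kupffer cell sums reached it, with no overlap between genotypes, and still had an adjusted p of 0.129. A list could pass only if most lists reached the smallest p together, so not passing does not show equal levels. The part of the marked cells in the Tnf, Tnfsf9 and pathway differences was not tested.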

How the data were processed

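RNA-seq was deposited as 1 table of raw counts per gene for 8 animals, with a second block of normalised signal that equals the counts divided by 1 size factor per library, per the file headers and a check here against DESeq2 1.42.0 factors. The authors' tools were cutadapt, STAR 2.7.3a, HTSeq 0.12.4 and DESeq2 1.26.0 on GRCm38, per the submitters' processing notes. Strandedness is not given in the sources used here. The deposited counts of 15336 genes were used, and a cre row was left out of library sizes and tests. Genes were filtered with filterByExpr (minimum count 10, minimum total 15), scaled by TMM and tested with edgeR 4.0.16, with genotype and label set as terms. Intervals are 95% and come from that fit. Alternatives used limma voom 3.58.1, DESeq2 1.42.0, sva 3.50.0, other scaling, filters and thresholds, and leaving out each animal. On simulated data of 12178 genes 88% of planted 2-fold changes and 94% of planted 4-fold changes were recovered, and 5.7% of calls were false. The simulated counts came from a fitted model with the label set as its term. They therefore do not measure false calls from variation outside that model, and no change under 2-fold was planted.

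The 10 members, the gene lists and the label set as a term were chosen with earlier results of these data known. Named genes were all members and, from each list, up to 4 called genes in each direction by smallest p. Marker sums were compared by exact permutation. Gene coordinates and UTRs are from GENCODE M21, in which 15324 gene IDs matched and 12 did not. Replicates are separate animals by their names. Read counts without molecular identifiers are not independent molecules.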

Additional observations from a re-analysis of the deposited data

Results flagged for a closer look

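Cd40 had genotype estimates of opposite sign in the label sets, but only the lower level in the higher-numbered set was called. By edgeR its log2 fold change, deficient over control, was -1.13 there (adjusted p = 0.00636). In the lower-numbered set it was 0.12 (adjusted p = 0.7625), so no rise was shown. The Cd40 log2 fold change differed by -1.25 between the higher-numbered and the lower-numbered set. The interaction had an adjusted p of 0.191 with edgeR and 0.00213 with DESeq2, and each set holds 2 animals per genotype.

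Of 76 groups of 4 animals checked for an animal far from the others, 2 held one, where chance gives about 1 in 20. Rhbdf1 stood at 0.647 CPM in deficient replicate 6, apart from the other deficient animals at 1.055 to 1.12 CPM. Summed liver endothelial markers stood at 143.7 CPM in control 11, against 29.6 to 39.8 CPM in the other controls.

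The cre transgene, a row outside the gene comparisons, averaged 5.6 CPM in deficient animals. No control had a count, and the limit of 3 counts per library, which covers counting error only, is 0.225 CPM at most.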

How the results depend on the processing

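No member was called for genotype under any alternative over both sets. With the higher-numbered set alone 1 member, Cd40, was called lower. Signs of uncalled members, and that of the called gene Zc3h12a, turned as follows. With 1 surrogate variable Tnf was -0.35, Tnfrsf1a 0.0310, Tnfrsf1b 0.0404 and Zc3h12a -0.0515. With the lower-numbered set alone Tnfrsf1b was 0.0488 and Cd40 0.1148, and as a contrast of the interaction model 0.0485 and 0.115. In the higher-numbered set Fas was -0.1144 alone and -0.110 in that model. Leaving out each animal moved Tnfsf12 between -0.12 and 0.0238.

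Genes called higher and lower in deficient animals, 802 and 895 in all 8 animals, numbered 0 and 0 without the label set, 85 and 94 with 1 surrogate variable, 280 and 366 in the higher-numbered set alone, and 31 and 15 in the lower-numbered set alone. They numbered 196 and 213 at an adjusted p under 0.01, and 1305 and 1413 under 0.1. Leaving out each animal gave 323 to 824 higher and 374 to 861 lower, with the lowest without deficient replicate 12 and counts over 1.5 times lower in at least 1 direction also without deficient replicate 13 or control replicate 2, 3 or 11. DESeq2 shared 1596 of its 1884 calls with edgeR.

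The label-set alternatives, the contrasts of the interaction model within a set and the interaction fits without 1 animal were added after the data were seen. Leaving out each animal moved the label-set difference of Tnfsf13b between -1.69 and -1.18, Tnfsf14 between 0.26 and 0.64, Fas between -0.65 and -0.40, and Cd40 between -0.39 and 0.0215. The interaction then ranged from -0.28 to 0.57 for Tnf, -0.13 to 0.88 for Tnfsf9, -0.12 to 0.23 for Tnfsf12, -0.29 to 0.72 for Tnfsf14, -1.84 to -0.77 for Tnfsf13b, -0.0444 to 0.21 for Tnfrsf1a and -0.10 to 0.0680 for Ltbr. For Cd40 it was -1.25 with DESeq2, and called. The cause of these changes was not tested. Fits without an animal or with 1 set hold fewer animals.

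No paired analysis was possible because no replicate number occurs in both genotypes. At 9 counts in 2 animals, depth limits Tnfsf13b.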
